A study of Saccharomyces cerevisiae YPS1009 with 18 samples.

Results

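Cohesin and condensin are the ring-shaped protein complexes that hold and fold chromosomes, and 10 genes that encode their core subunits and the cohesin loader were followed here through a yeast plasmid screen of chronological aging. The genes were taken by name: SMC1 (YFL008W), SMC3 (YJL074C), MCD1 (YDL003W) and IRR1 (YIL026C) of the cohesin ring, SCC2 (YDR180W) and SCC4 (YER147C) of the loader, and SMC2 (YFR031C), SMC4 (YLR086W), BRN1 (YBL097W) and YCG1 (YDR325W) of condensin. Of these 10, 9 had a row among the 4872 plasmids of the count table, and 8 had enough counts to be tested among 4508 tested plasmids. BRN1 was not analysed here. The set was chosen by complex, but with the barcode counts of these 18 libraries and their changes over time already known, so the fits below describe the genes and are not independent evidence about them.

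In the MoBY library, each centromeric plasmid holds a single yeast gene with its native flanks and a DNA barcode, so that the barcode count follows the abundance of cells that hold an extra copy of that gene. The tested strain was AGY1612, a MATa haploid of the oak-soil isolate YPS1009 with its HO gene deleted, a his3 deletion, a His3MX6/NatMX marker and a duplicated chromosome XII. Its reference was AGY1611, the euploid MATa haploid of YPS1009 with the same HO deletion and a NatMX marker in an intergenic site on chromosome XII. The sample labels give the strain numbers, and the genotypes come from the study's strain list. All cultures grew in rich YPD medium with G418, the drug that selects for the plasmids. Each strain was sampled at the start (T0), at day 1 and at day 28, with 3 replicates in each of 6 groups, 18 libraries in all. The 3 replicates came from 2 independent transformations, so some share a transformation. For the later times, part of each culture was plated and the lawn that grew was scraped, and these barcodes therefore count cells that could still divide. A lower barcode count can come from fewer living cells, slower outgrowth or plasmid loss, and these cannot be told apart. Each strain is 1 haploid construct. Library totals were 3491412 to 6298768 counts at T0, 904993 to 1925967 at day 1 and 503569 to 1338206 at day 28. Levels are given as CPM, counts scaled by TMM to a common library size of 1000000.

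SMC proteins are long coiled-coil ATPases that pair to make the body of a ring, and a kleisin subunit closes it. In cohesin, Smc1 and Smc3 are joined by the kleisin Mcd1 (also called Scc1), Irr1 (Scc3) binds the kleisin, and Scc2 with Scc4 loads the ring onto DNA, where it holds sister chromatids together until the protease separase cuts Mcd1. In condensin, Smc2 and Smc4 are joined by the kleisin Brn1, with Ycg1 and Ycs4 as its accessory subunits, and the complex compacts chromosomes for mitosis. The core subunits are essential in yeast, and here each strain kept its own chromosomal copies and received the plasmid copy in addition.

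The starting pools held these plasmids at very different levels, and the longest genes were mostly the scarce ones. Over the 6 libraries of the starting pools, mean abundance was 461 CPM for MCD1, 301 CPM for SCC4, 259 CPM for SMC1 and 125 CPM for SMC3. It was 27.5 CPM for SMC2, 25.0 CPM for SMC4, 22.0 CPM for IRR1 and 21.3 CPM for YCG1. MCD1 thus lay above 95.8% of the 4872 plasmids in the table, untested ones included, whereas YCG1, IRR1, SMC4 and SMC2 lay above only 14.3%, 14.7%, 15.6% and 16.6% of them. All 4 were in the lowest of 4 equal groups of the tested plasmids, 0.523 to 80.0 CPM.

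SCC2, which encodes the loader's large subunit, had 0 counts in all 18 libraries. The 6 T0 libraries held 32213176 counts in all, so a count of 0 allows the SCC2 barcode at most 0.0931 CPM there, counting error only. No change of SCC2 could be measured, and the loader is represented by SCC4 alone.

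Across the library, longer genes tended to have lower T0 levels, with a weak rank correlation. By the RefSeq annotation of the S288C reference, MCD1 spans 1701 bp, SCC4 1875 bp, YCG1 3108 bp, IRR1 3453 bp, SMC2 3513 bp, SMC1 3678 bp, SMC3 3693 bp, SMC4 4257 bp and SCC2 4482 bp. With BRN1 at 2265 bp, 7 of the 10 genes fell in the longest of 10 equal length groups in the table, 2628 to 9435 bp. Plasmids of that group had a median of 40.6 CPM at T0 and 21 of 487 had no count, against a median of 229 CPM and 1 of 487 without a count in the shortest group. Across 4778 plasmids, which are not independent replicates, Spearman's rho between gene length and T0 level was -0.293. SMC1 and SMC3 were exceptions among the long genes, lying above 74.5% and 40.6% of all plasmids in the table. The part of gene length in the later counts was not tested.

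**Figure D1:**
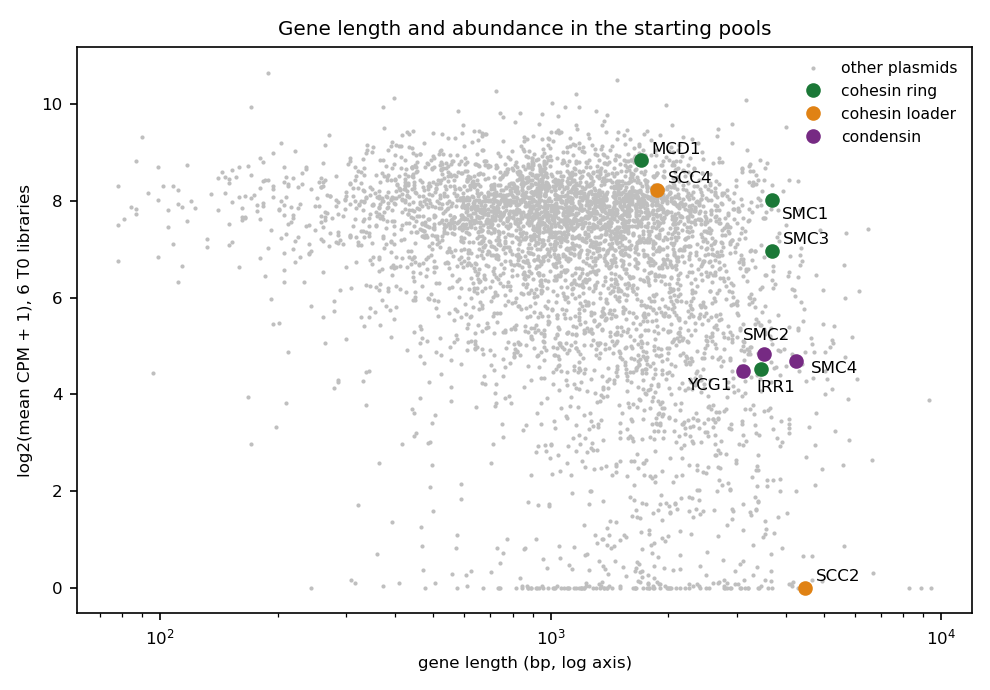
Gene length in bp (x axis, log scale) against log2(mean CPM + 1) over the 6 T0 libraries (y axis), with 1 gray point per plasmid and colored points for the cohesin ring, the loader and condensin. MCD1 and SCC4 are short and abundant, SMC2, SMC4, IRR1 and YCG1 are long and lie between 21.3 and 27.5 CPM, and SCC2 lies at 0.

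Fitted T0 differences, AGY1612 minus AGY1611, were log2 -0.76 to 0.07 over the 8 tested genes. None was called by edgeR (background 0% of plasmids past FDR < 0.1) or DESeq2, but this test could hardly call one. Its spread per plasmid is shared by all 18 libraries, later ones included, and 0 of 4508 plasmids had an unadjusted p below 0.05 (edgeR). Without a fit, the pools of the 2 strains overlapped for all 8 genes, while those of 7.92% of all tested plasmids did not. Replicates agreed closely, with a median coefficient of variation of 9.64% for AGY1612 and 5.18% for AGY1611. SMC2 was the least even gene at T0. It had 8.40, 20.7 and 32.1 CPM in the AGY1612 starting pools, against 41.8, 29.6 and 32.4 CPM in AGY1611, and its fitted strain difference, log2 -0.76 ± 1.02 (SE), was the seventh lowest of all tested plasmids. These 2 sets of 3 pools overlapped.

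Across 28 days the set split by gene. In AGY1612, the SMC3 and IRR1 plasmids fell and the SMC2 plasmid rose, which makes 3 of 8 genes called, 2 down and 1 up, where 19.9% of all tested plasmids were called (12.9% down and 6.99% up). In AGY1611, only the SMC4 plasmid was called, falling, which is 1 of 8 against a background of 14.6% (9.49% down and 5.12% up). The split of all calls moved with the scaling: 35.1% of them were up in each strain under TMM, 24.6% in AGY1612 and 20% in AGY1611 with DESeq2's size factors, and 14.8% and 12.6% with total counts. The median log2 change of the 8 genes was -0.90 in AGY1612 and -0.46 in AGY1611, against 0.19 and 0.16 for all tested plasmids. In the lowest T0 group, which holds 4 of the 8 genes, the median of all plasmids was -0.47 in AGY1612 and -0.51 in AGY1611. Ranges were wide, from -4.10 for SMC3 to 2.74 for SMC2 in AGY1612.

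**Figure D2:**
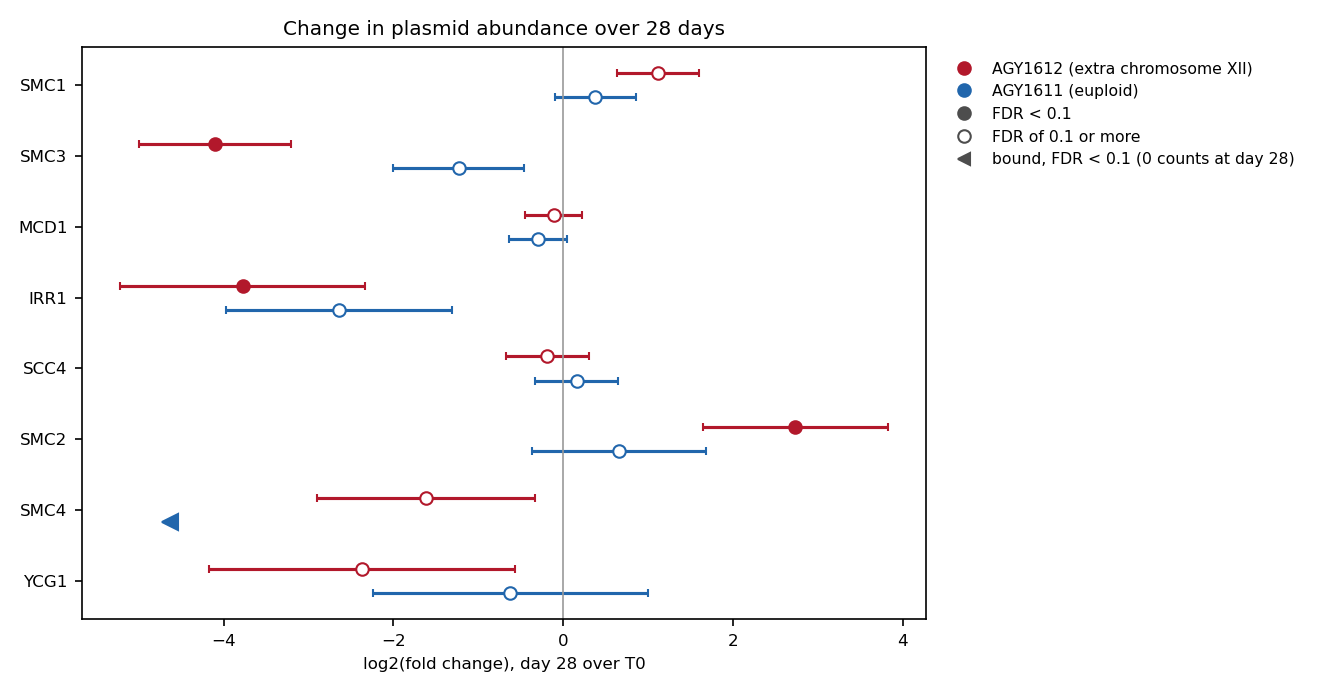
log2 fold change of day 28 over T0 (x axis) for each tested gene, AGY1612 in red above AGY1611 in blue, with bars of 1 SE and filled symbols for FDR < 0.1. SMC3 and IRR1 lie left and SMC2 right of 0 with filled symbols in AGY1612, and the triangle marks the bound of at least 4.63 log2 units lower for SMC4 in AGY1611, where all day 28 counts were 0.

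SMC3, one of the cohesin ATPases, fell in AGY1612. It had 107, 126 and 134 CPM at T0, 34.8, 14.6 and 29.2 CPM at day 1, and 18.5, 2.62 and 2.16 CPM at day 28. In AGY1611 it had 124, 137 and 122 CPM at T0, 32.6, 38.1 and 57.5 CPM at day 1, and 50.6, 66.8 and 45.4 CPM at day 28. Every library of day 1 and day 28 lay below every T0 library in both strains. Over all tested plasmids, 25.9% did so at day 1 and 27.3% at day 28 in AGY1612, and 26.8% and 25.4% in AGY1611. The 3 AGY1612 libraries of day 28 lay below the 3 of AGY1611, as they did for 6.74% of all tested plasmids.

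The mean of SMC3 was 7.75 ± 9.29 CPM at day 28 in AGY1612 against 122 ± 13.8 CPM at T0, and 54.3 ± 11.1 CPM at day 28 in AGY1611 against 128 ± 8.34 CPM at T0 (SD, n = 3 each). The fitted log2 change over 28 days was -4.10 ± 0.90 (SE, FDR 0.00587) in AGY1612 and -1.23 ± 0.77 (FDR 0.341) in AGY1611. Much of the fall was present after 1 day, when the log2 change was -2.22 ± 0.79 (FDR 0.138) in AGY1612 and -1.58 ± 0.78 (FDR 0.309) in AGY1611. The day 28 values of AGY1612 rest on 9, 3 and 2 counts. The call held without any single library of the 18, with log2 changes of -5.53 to -3.48.

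SMC1, the partner ATPase of Smc3 in the same ring, did not follow it. Its plasmid had 232, 262 and 268 CPM at T0, 291, 241 and 288 CPM at day 1, and 425, 999.8 and 226 CPM at day 28 in AGY1612. It had 260.4, 269 and 265 CPM at T0, 526, 300.2 and 170.3 CPM at day 1, and 215, 285 and 534 CPM at day 28 in AGY1611. At day 28, 2 of 3 libraries lay above the T0 mean and 1 lay below it in each strain, and day 28 and T0 overlapped. The log2 change was 1.12 ± 0.48 (FDR 0.130) in AGY1612 and 0.38 ± 0.48 (FDR 0.667) in AGY1611, neither past the threshold. Leaving out single libraries carried SMC1 past it in AGY1612 in 9 of 18 cases: 5 of the 6 day 28 and day 1 libraries of AGY1612, all but replicate 2 of day 28, and 4 of AGY1611, namely the 3 of day 28 and replicate 3 of day 1 (FDR 0.0312 to 0.0889). In those 9 fits, 964 to 1181 of all tested plasmids were called, 428 to 557 of them up, against 898 and 315 in the main fit. The median log2 change of all plasmids was 0.24 to 0.32 there, against 0.19.

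MCD1, the kleisin that separase cuts, was not called at any time. It had 462, 474 and 466 CPM at T0, 351, 422 and 339 CPM at day 1, and 482, 595 and 221 CPM at day 28 in AGY1612. It had 451, 468 and 449 CPM at T0, 489, 329 and 472 CPM at day 1, and 410.1, 331 and 374 CPM at day 28 in AGY1611. The log2 change over 28 days was -0.11 ± 0.34 (FDR 0.856) in AGY1612 and -0.29 ± 0.34 (FDR 0.635) in AGY1611, the smallest errors of the set. The 3 day 28 libraries of AGY1611 lay below its 3 T0 libraries, as they did for 25.4% of all tested plasmids.

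IRR1, the subunit that binds the cohesin kleisin, started low and fell in AGY1612. It had 114, 81 and 139 counts at T0, 10, 4 and 9 counts at day 1, and 0, 0 and 4 counts at day 28 in AGY1612. It had 175, 152 and 147 counts at T0, 2, 7 and 27 counts at day 1, and 4, 0 and 5 counts at day 28 in AGY1611. All day 28 libraries lay below all T0 libraries in each strain. Over all tested plasmids, 27.3% did so in AGY1612 and 25.4% in AGY1611. Mean levels at day 28 were 1.44 ± 2.50 CPM in AGY1612 and 3.73 ± 3.79 CPM in AGY1611, against 21.6 ± 1.73 CPM and 22.4 ± 2.38 CPM at T0 (SD, n = 3 each).

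The log2 change of IRR1 was -3.77 ± 1.44 (SE, FDR 0.0847) in AGY1612 and -2.64 ± 1.33 (FDR 0.225) in AGY1611. Leaving out 1 library at a time ended the AGY1612 call in 8 of 18 cases, namely without any of the 6 T0 libraries (FDR 0.121 to 0.179) and without replicate 1 or replicate 2 of day 28 in AGY1612 (FDR 0.177 and 0.218). The strain difference of these changes, AGY1612 minus AGY1611, was -1.13 ± 1.87 log2 units (FDR 0.9995) and was not called.

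SCC4, the smaller subunit of the cohesin loader, showed no steady direction. It had 303, 307 and 305 CPM at T0, 461, 373 and 131 CPM at day 1, and 275, 180 and 350.4 CPM at day 28 in AGY1612. It had 288, 306 and 297 CPM at T0, 228, 143 and 196 CPM at day 1, and 224, 154 and 619 CPM at day 28 in AGY1611. The log2 change over 28 days was -0.18 ± 0.49 (FDR 0.834) in AGY1612 and 0.16 ± 0.49 (FDR 0.873) in AGY1611. The sign in AGY1611 was negative under other scalings of the libraries.

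**Figure D3:**
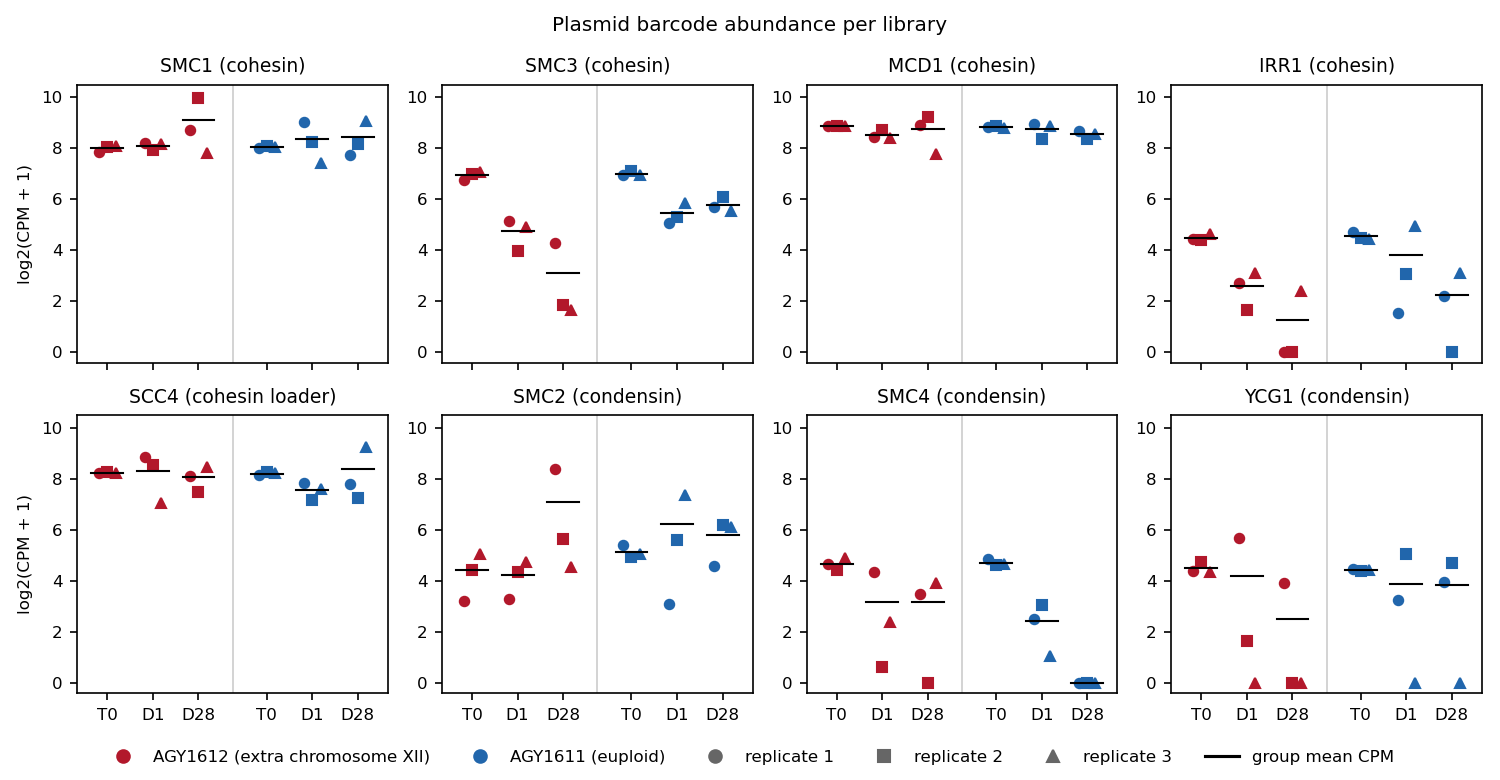
log2(CPM + 1) of each of the 8 tested plasmids (y axis) in the 18 libraries (x axis: T0, D1 for day 1 and D28 for day 28), AGY1612 in red and AGY1611 in blue, 1 symbol per replicate and a black line at the log of the mean CPM of each group. SMC3 lies below T0 at both later times in both strains and lowest in AGY1612, SMC4 lies at 0 in all 3 AGY1611 libraries of day 28, and a single AGY1612 library at 339 CPM stands far above the rest for SMC2.

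Among the condensin genes, SMC2 was called higher in AGY1612 and SMC4 lower in AGY1611, although their products pair in 1 ring. SMC2 had 8.40, 20.7 and 32.1 CPM at T0, 8.83, 19.4 and 25.8 CPM at day 1, and 339, 49.8 and 22.7 CPM at day 28 in AGY1612. It had 41.8, 29.6 and 32.4 CPM at T0, 7.68, 48.6 and 167 CPM at day 1, and 23.5, 72.9 and 68.1 CPM at day 28 in AGY1611. In AGY1612 the level at day 28 was set mostly by replicate 1, with 165 counts, and the third replicate lay within the T0 range.

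The log2 change of SMC2 over 28 days was 2.74 ± 1.09 (SE, FDR 0.0984) in AGY1612, where only 12 of 4508 tested plasmids had a higher value, and 0.66 ± 1.03 (FDR 0.734) in AGY1611. Without replicate 1 of day 28, the AGY1612 change was 0.94 (FDR 0.572). The call was lost as well without any of the 6 T0 libraries (FDR 0.125 to 0.297) and without replicate 2 of day 1 in AGY1611 (FDR 0.104). The call was also lost when libraries were scaled by DESeq2's size factors (2.62, FDR 0.121), scaled to total counts (2.49, FDR 0.149), tested without the filter on low counts (2.65, FDR 0.116) or tested in AGY1612 alone (2.65, FDR 0.119). The low T0 level of SMC2 in AGY1612 enters this change as its denominator. From day 1 to day 28 the log2 change was 2.92 ± 1.10 in AGY1612 (FDR 0.274).

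SMC4, the other condensin ATPase, is encoded on chromosome XII, so AGY1612 holds 1 more chromosomal copy of it than AGY1611 before the plasmid is added. Its barcode had 133, 81 and 169 counts at T0, 35, 1 and 5 counts at day 1, and 5, 0 and 13 counts at day 28 in AGY1612. It had 197, 167 and 176 counts at T0, 5, 7 and 1 counts at day 1, and 0, 0 and 0 counts at day 28 in AGY1611. In both strains all libraries of day 1 and day 28 lay below all T0 libraries. At day 1 this held for 25.9% of all tested plasmids in AGY1612 and 26.8% in AGY1611, and at day 28 for 27.3% and 25.4%. In AGY1611 all day 28 libraries of SMC4 also lay below those of day 1, as for 5.55% of all tested plasmids.

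The mean of SMC4 at T0 in AGY1611 was 25.5 ± 2.38 CPM (SD, n = 3). Against a floor of 3 counts summed over the 3 day 28 libraries, 1.03 CPM, the plasmid was at least 24.7-fold lower at day 28 (FDR 0.0162). In AGY1612 the log2 change was -1.61 ± 1.29 (FDR 0.440), with means of 8.11 ± 7.27 CPM at day 28 and 24.5 ± 4.14 CPM at T0. The call in AGY1611 held in each alternative run and without any single library (FDR 0.00176 to 0.0562).

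YCG1, the condensin subunit that clamps DNA, was present in some cultures and missing from others. It had 111, 102 and 115 counts at T0, 92, 4 and 0 counts at day 1, and 7, 0 and 0 counts at day 28 in AGY1612. It had 150, 140 and 150 counts at T0, 9, 31 and 0 counts at day 1, and 16, 29 and 0 counts at day 28 in AGY1611. In replicate 3 of each strain, the plasmid had 0 counts at both day 1 and day 28. The log2 change over 28 days was -2.37 ± 1.80 (FDR 0.417) in AGY1612 and -0.62 ± 1.62 (FDR 0.852) in AGY1611. Without replicate 1 of day 28, the remaining AGY1612 libraries of that day are both at 0 counts and the plasmid was called lower (FDR 0.0863), and without any other single library the FDR was 0.375 to 0.649.

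At day 1 none of the 8 genes was called by edgeR in AGY1612 (background 2.86%) or in AGY1611 (background 0.288%). At an unadjusted p below 0.05 in edgeR there was 1 of the 8 in AGY1612, SMC3, against 947 of all 4508 tested plasmids. In AGY1611 there were 0 of the 8, against 743 of 4508. DESeq2 called SMC3 lower in both strains, where it called 513 of 4508 plasmids in AGY1612 and 333 in AGY1611. Medians of the 8 genes were negative, log2 -0.32 in AGY1612 and -0.62 in AGY1611, against 0.13 and 0.05 for all tested plasmids. Plasmids of the lowest T0 group, which holds 4 of the 8 genes, also had negative medians, -0.42 in AGY1612 and -0.68 in AGY1611. SMC4 in AGY1611 had a log2 change of -2.51 ± 1.33 at day 1 (FDR 0.336). From day 1 to day 28 edgeR called no gene either (background 1.53% in AGY1612 and 0.954% in AGY1611). At an unadjusted p below 0.05 in edgeR there were 3 of the 8 in AGY1612, against 513 of 4508 tested plasmids, and 1 in AGY1611, against 429. DESeq2 called 2 of the 8 in AGY1612 (SMC2 and SMC3), where it called 218 of 4508 plasmids, and 0 in AGY1611, where it called 150. The log2 change of SMC3 in AGY1612 over that interval was -1.88 ± 0.84 (FDR 0.390 in edgeR).

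Replicates spread further apart after T0 in both strains. The median coefficient of variation of the set in AGY1612 reached 9.64% in the starting pools, 50.3% after 1 day and 105% after 28 days, where all tested plasmids had medians of 5.72%, 49.1% and 50.9%. In AGY1611 it was 5.18%, 62.7% and 49.7%, close to 3.96%, 55.4% and 54.1% for all tested plasmids, with SMC4 left out at day 28. At day 28, 3 of 8 genes had 0 counts in at least 1 library in each strain, as did 13.8% of all tested plasmids in AGY1612 and 17.8% in AGY1611. These 3, IRR1, SMC4 and YCG1, are in the lowest T0 group. In AGY1612 they and SMC3 had at most 13 counts in any day 28 library, where counting error alone is large. No comparison with equally scarce plasmids was made.

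The libraries were also set side by side without a fit. All 3 day 28 libraries lay below all 3 T0 libraries for 4 of 8 genes in AGY1612 (SMC3, IRR1, SMC4 and YCG1), where 27.3% of all tested plasmids did so. The count was also 4 of 8 in AGY1611 (SMC3, MCD1, IRR1 and SMC4), where 25.4% did so. No gene of the set had all day 28 libraries above all T0 libraries in either strain (background 21.1% in AGY1612 and 20.8% in AGY1611), SMC2 included. At day 1 all libraries lay below all T0 libraries for 4 of 8 genes in AGY1612 (background 25.9%) and for 3 of 8 in AGY1611 (background 26.8%). The 4 scarce genes sit in a T0 group in which 16.0% of plasmids fell and 1.33% rose in AGY1612, and 13.8% fell and 0.976% rose in AGY1611.

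Whether the day 28 response of these genes differed between strains was asked with the interaction of strain and time. As listed, the strains also differ in the his3 deletion and the markers. An effect of the extra chromosome cannot be told apart from those. None of the 8 passed in edgeR (background 0.266%). At an unadjusted p below 0.05 in edgeR there were 2 of the 8, SMC3 and SMC4, against 313 of 4508 tested plasmids. DESeq2 called 0 of the 8 and 53 of 4508 plasmids. The median difference of log2 changes, AGY1612 minus AGY1611, was -0.08 against -0.02 for all tested plasmids. For SMC3 the difference was -2.87 ± 1.14 log2 units (FDR 0.591). For SMC4 it was positive, the change in AGY1612 being at least 3.01 log2 units less negative when the AGY1612 estimate is taken as exact (FDR 0.546). SMC2 differed by 2.08 ± 1.46 (FDR 0.872). The strain difference in the day 1 response was not called for any of the 8 either (background 0%). At an unadjusted p below 0.05 in edgeR there were 0 of the 8, against 172 of 4508 plasmids. DESeq2 called 0 of the 8 and 0 of all plasmids. Calls of SMC3, IRR1 and SMC2 in 1 strain and of SMC4 in the other are therefore not shown to differ between strains.

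Of 8 partners, namely ECO1, PDS5, RAD61, HOS1, ESP1, PDS1, REC8 and YCS4, 0 rose and 1 fell in AGY1612 (6.99% and 12.9% of all tested plasmids), and 1 rose and 0 fell in AGY1611 (5.12% and 9.49%). DESeq2 called PDS5 lower in both strains as well, and ESP1 and YCS4 lower in AGY1611. Over all 4508 tested plasmids it called 977 in AGY1612 and 753 in AGY1611, in either direction. The one that fell in edgeR was ESP1, which encodes separase. Its log2 change was -4.10 ± 0.90 (FDR 0.00607) in AGY1612 and -2.10 ± 0.81 (FDR 0.105) in AGY1611. Its mean was 9.95 ± 6.94 CPM at day 28 and 164 ± 12.8 CPM at T0 in AGY1612, and 40.8 ± 28.5 CPM at day 28 and 175 ± 3.27 CPM at T0 in AGY1611 (SD, n = 3 each). HOS1, the deacetylase that acts on Smc3, rose in AGY1611 by log2 1.34 ± 0.48 (FDR 0.0818), with means of 542 ± 306 CPM at day 28 and 214 ± 0.517 CPM at T0. The partners' median log2 change was 0.02 in AGY1612 and -0.49 in AGY1611.

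The Smc5/6 complex, the remaining SMC complex of yeast, acts in DNA repair. Of its 8 genes, KRE29 had 0 counts in all 18 libraries. Of the 7 tested, 0 were called in AGY1612. There, 0 of the 7 had an unadjusted p below 0.05 in edgeR, against 1228 of 4508 plasmids, and DESeq2 called 0, against 977. In AGY1611, 3 fell, where 9.49% of all tested plasmids fell and 13.8% of those in the lowest T0 group, which holds these 3. SMC6, one of its ATPases, had 0 counts in all day 28 libraries of AGY1611 and was at least 9.88-fold lower than at T0 (FDR 0.0532). NSE4, its kleisin, fell by 4.03 ± 1.36 log2 units (FDR 0.0640), with 5, 0 and 0 counts at day 28. NSE5 had 2, 0 and 1 counts and was 24.3-fold lower (95% Poisson interval 8.30 to 118, counting error only; FDR 0.0863). All 3 were scarce at T0 in AGY1611, with means of 10.2 to 26.8 CPM. The strain difference of day 28 changes was called for 0 of the 7 in edgeR. At an unadjusted p below 0.05 there were 2 of the 7, against 313 of 4508 plasmids. It was 4.33 ± 1.75 log2 units (FDR 0.594) for NSE4 and 3.96 ± 2.06 (FDR 0.773) for NSE5, with FDR 0.526 for SMC6. The 3 falls are therefore not shown to differ between strains.

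**Figure D4:**
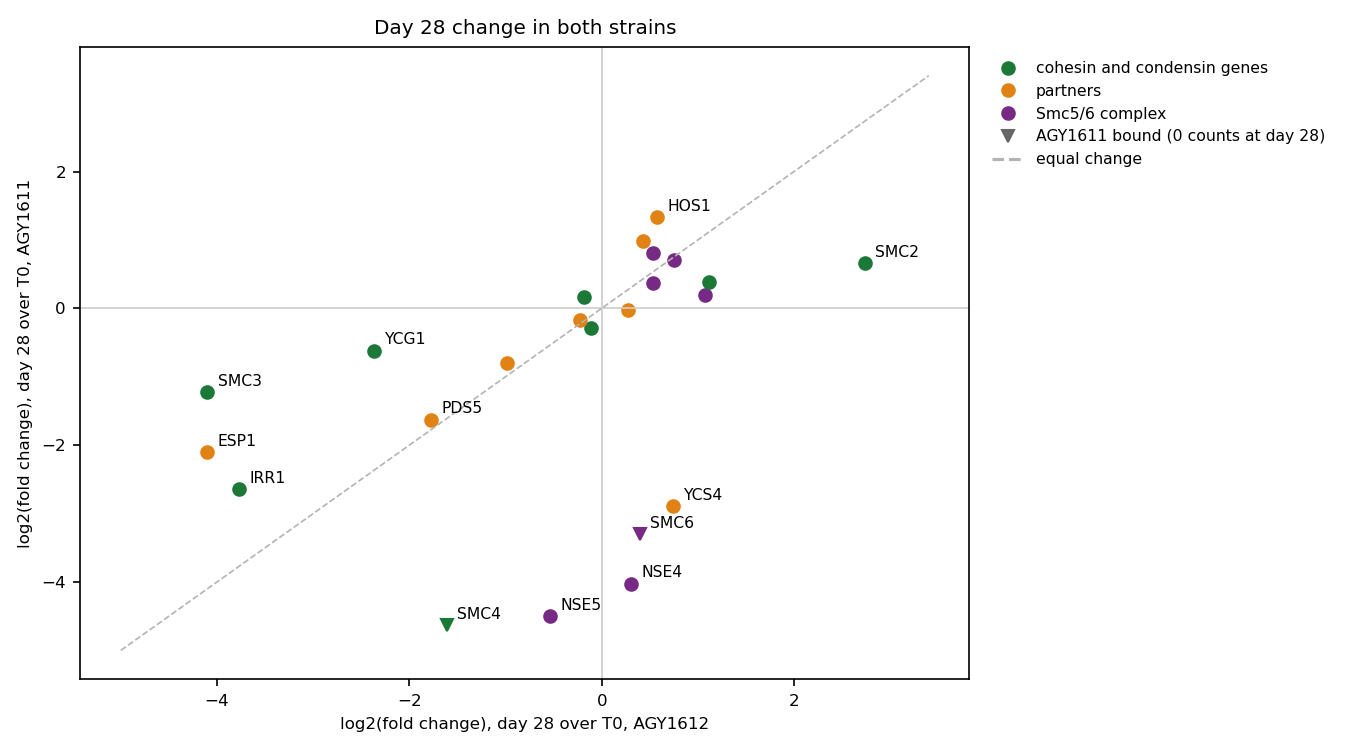
log2 fold change of day 28 over T0 in AGY1612 (x axis) against that in AGY1611 (y axis), with 1 point per tested gene of the set, the partners and the Smc5/6 complex; the dashed line marks equal change and triangles are bounds in AGY1611. SMC3, IRR1 and ESP1 lie far left, and SMC4, SMC6, NSE4, NSE5 and YCS4 lie low.

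Of the 26 genes in these 3 lists, 4 lie on chromosome XII, the chromosome duplicated in AGY1612: SMC4, the condensin subunit YCS4, SMC6 and NSE1. They were singled out after their values had been seen. The difference of day 28 log2 changes, AGY1612 minus AGY1611, was positive for all 4, at 3.63 ± 1.69 (FDR 0.688) for YCS4 and 0.88 ± 0.93 for NSE1, with SMC4 and SMC6 at 0 counts in AGY1611. None was called. The 409 tested plasmids with chromosome XII genes had a median difference of 0.00, against -0.02 for the 4099 others.

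By Pearson correlation of log2 CPM over the 18 libraries, the plasmids most like SMC3 were those of CUB1 (r = 0.930), RPL29, a ribosomal protein gene (0.916), and MNN5, a mannosyltransferase gene (0.911). These are descriptions over libraries that share strain and time. The 3 had log2 changes over 28 days of -7.33, -3.05 and -4.13 in AGY1612 and of -2.59, -2.04 and -2.10 in AGY1611.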

How the data were processed

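The authors deposited raw barcode counts, 1 row per MoBY plasmid and 1 column per library, from barcodes amplified with 20 PCR cycles. The counting program and a genome build are not given in the sources used here. It held 4872 rows, 86 of them without a count in any library. Gene names, chromosomes and lengths came from RefSeq's S288C table, which matched 4865 rows by systematic name.

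The counts were fitted with edgeR 4.0.16 in R 4.3.3 (TMM scaling, filterByExpr by group, 1 coefficient per group over all 18 libraries, quasi-likelihood F-test, two-sided). FDR is the Benjamini-Hochberg adjusted p over 4508 plasmids, called below 0.1. The SE is the absolute log2 change divided by the square root of F. For a group with 0 counts, the bound uses 3 counts summed over the group. The script was tested on simulated counts. Log2 CPM for correlations had a prior count of 2. Alternatives were DESeq2 1.42.0 and its size factors, total counts, no filter, FDR < 0.05, each strain alone, a replicate block and leaving out each library. PCR reads carry no molecular identifiers, so intervals cover counting error only. p-values and SEs rest on 1 estimate of spread per plasmid over all 18 libraries, in which even T0 pools and uneven later cultures are mixed. They therefore do not measure the spread of the compared groups alone, and that spread may be partly technical.

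The members and lists were chosen with earlier results of these data known. All members are named, and genes of the other 2 lists where they passed FDR < 0.1, except that the chromosome XII genes and the whole partner list were named regardless. Deviations of same-numbered libraries of day 1 and day 28, drawn from the same culture, correlated (r = 0.145 to 0.315 in AGY1612 and 0.333 to 0.504 in AGY1611), while those with T0 and between strains did not in every pair. The blocks that were run, over both strains or within strain, join the same-numbered T0 library as well, so neither fits that pairing alone. With either block, no gene of the set was called from day 1 to day 28.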

Additional observations from a re-analysis of the deposited data

How the results depend on the processing

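The SMC3 call in AGY1612 and the SMC4 call in AGY1611 held in each alternative run and without any single library. At FDR < 0.05, 1 gene (SMC3) remained called over 28 days in AGY1612. Leaving out each library gave 1 to 4 called genes there, while 491 to 1181 of all tested plasmids were called. Only 1 gene, SMC3, was called when any single T0 library of either strain was left out. DESeq2 called 1 gene at day 1 in AGY1612 and 1 in AGY1611, SMC3 in both, and 2 (SMC2 and SMC3) from day 1 to day 28 in AGY1612. Leaving out each library gave 0 to 1 called genes for day 1 and for day 1 to day 28 in AGY1612, the 1 being SMC3 without replicate 1 of AGY1612 day 28 for both and without its replicate 2 for day 1. A replicate block over all libraries gave the same 3 called genes in AGY1612 over 28 days. A block within strain, added after seeing the data, also gave 3, with SMC2 lost (2.47, FDR 0.217) and YCG1 called (-5.28, FDR 0.0764). The log2 change of SCC4 over 28 days in AGY1611 was -0.0322 with DESeq2's size factors in edgeR, -0.13 with total counts, -0.0075 without the filter, -0.0325 in DESeq2 and -0.0480 with the block within strain. Leaving out single libraries turned signs, none of them called, with log2 changes of -0.26 to 0.33 for MCD1 and -0.29 to 0.19 for SCC4 in AGY1612, -0.54 to 0.59 for SCC4 and -1.33 to 0.0503 for YCG1 in AGY1611, and strain differences of -0.0665 to 0.53 for MCD1 and -0.63 to 0.49 for SCC4. The median of all plasmids over 28 days moved with the scaling: 0.19, 0.03 and -0.11 in AGY1612 and 0.16, -0.02 and -0.14 in AGY1611 for TMM, DESeq2's size factors and total counts. Over all plasmids, DESeq2 called 513 at day 1 in AGY1612 against 129 in edgeR, and 333 against 13 in AGY1611. From day 1 to day 28 in AGY1612 it called 218 against 69. The cause was not tested. Strain differences could not be fitted in each strain alone. Day 28 counts of IRR1, SMC4 and YCG1 were 0 to 29, which limits what these libraries can show.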
